A study of Mus musculus with 6 samples.

Results

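Blood vascular endothelial cells (BECs) freshly sorted from mouse embryonic skin were compared with BECs of a yolk sac line kept in culture, both of them controls without a change of Dot1l. The comparison took every gene with at least 30 reads in the 2 libraries together, which left 13341 of the 24421 genes of the table, 12722 of them protein coding. Skin BECs (Cont) came from embryos at E15.5 whose genotype was Tie2-Cre(-); Dot1l 2f/2f (labelled wild type), and the RNA of 2 to 3 embryo skins was pooled into 1 library. The skin was digested with collagenase, cells carrying F4/80 or CD45 (macrophages and other leukocytes) were depleted, and cells carrying Lyve1 (lymphatic endothelium) were then taken away. A legend of the study adds that the BECs were positive for CD31, the product of Pecam1, a step that its written methods leave out. Cultured BECs (Cont) were cells of the line CRL-2581 from embryonic yolk sac that had received an empty lentivirus and had been sorted for EGFP, with 2 to 3 flasks in 1 library. Side by side with these stand the library labelled Dot1l KO (cKO) from Tie2-Cre(+); Dot1l 2f/2f skin of the same age, the same line with Dot1l activated through dCas9-VP64 (OE), and cultured dermal lymphatic endothelial cells (LECs, C57-6064L) with the empty virus (Cont) or with Dot1l activated (OE). Tie2-Cre acts in endothelial and blood cells.

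Each group is 1 library. The differences below therefore describe libraries, with no test against the spread between replicates, and tissue of origin, embryonic stage, mouse strain, culture, dissociation, viral transduction and the kind of sort cannot be told apart as their source. Values are reads per gene and the same reads scaled to a library of 1000000 (CPM), computed without Rn45s, the ribosomal RNA precursor, which took 0.570% of the reads in skin and 5.91% in cultured BECs. The remaining depth was 8812856 and 16640629 reads. Genes with at most 3 reads in a library are called at the floor there, which is 0.340 CPM in skin and 0.180 CPM in cultured BECs. Ratios carry exact (Clopper-Pearson) 95% intervals for the counting error of reads only. Copies made by PCR were not marked and reads need not stand for separate molecules, so the intervals may be too narrow even for that.

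Endothelial cells line every vessel, keep a common set of junction proteins, receptors and transcription factors, and add features of the organ and of the kind of vessel they build. Capillary cells handle lipids, arterial cells carry Notch signals, lymphatic cells depend on Prox1, and much of this depends on blood flow, matrix and neighbouring cells. Lines kept on plastic lack those inputs, and embryonic skin gives endothelium together with whatever cells the sort lets through.

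Of the 13341 genes, 2598 (19.5%) were more than 3-fold higher in skin BECs and 1261 (9.45%) were more than 3-fold higher in cultured BECs, while 9482 (71.1%) stayed within 3-fold. The median log2 ratio of skin over cultured BECs was 0.14, with quartiles at -0.67 and 1.14. Genes that skin held and the line lacked were far more numerous than the reverse. At the floor in cultured BECs were 977 genes (7.32%), 694 of them with 0 reads, and they took 4.25% of the skin reads. At the floor in skin BECs were 141 genes (1.06%), 50 of them with 0 reads, and they took 0.223% of the reads of the line. A gene at the floor in one library passed the minimum of 30 reads through the other alone and had to differ, so the counts over gene lists below describe the members that passed and support nothing further. The background for each list below is the share of all genes, 19.5% higher in skin, 9.45% higher in the line and 71.1% within 3-fold. The scatter of both libraries shows these sets along its left and lower edges.

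**Figure D1:**
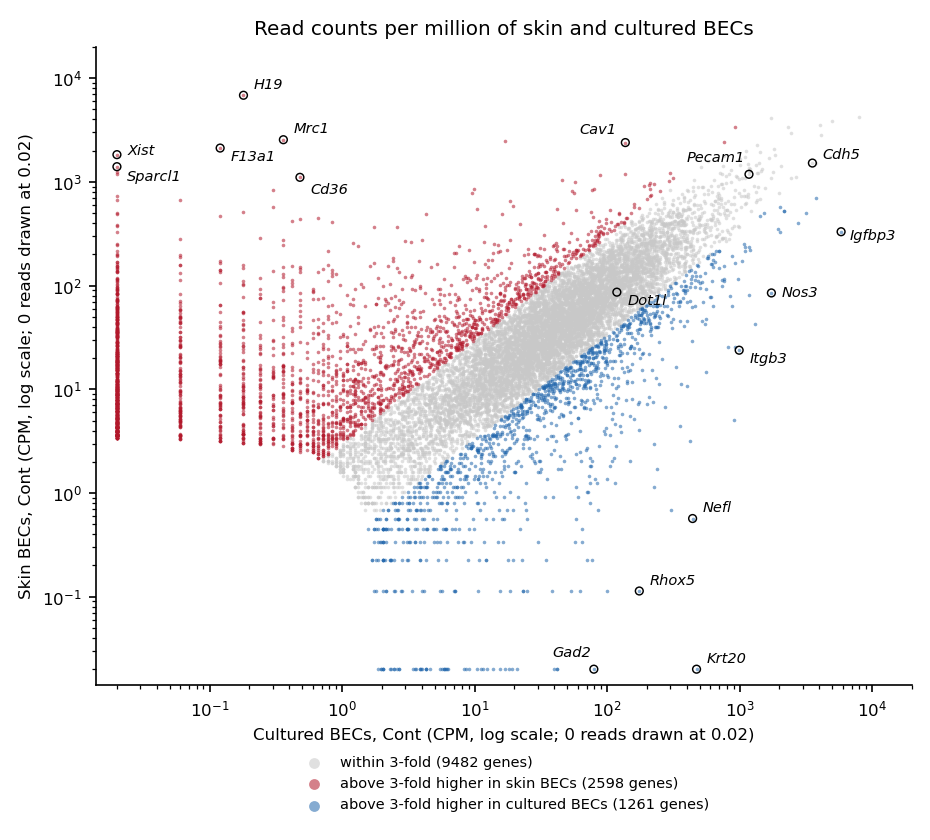
CPM of each of the 13341 genes in cultured BECs (horizontal, log scale) against skin BECs (vertical, log scale), both Cont, with genes at 0 reads drawn at 0.02. Red points (2598 genes) are more than 3-fold higher in skin, blue points (1261 genes) more than 3-fold higher in the line, grey points (9482 genes) lie between, and named genes are circled. Pecam1 lies near the diagonal, while Sparcl1 and Xist lie at 0 reads in the line and Krt20 and Gad2 at 0 reads in skin.

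The library labelled Dot1l KO and the OE library of the line form a second pair of skin and line that shares no library with the first, although Dot1l was changed in it, so it is no replicate. Of its 13759 genes with at least 30 reads, 3091 (22.5%) were more than 3-fold higher in skin and 1115 (8.1%) more than 3-fold higher in the line. Both pairs called 2147 genes higher in skin, which is 82.6% of the list of the Cont pair and 69.5% of that of the other pair. They shared 810 genes higher in the line, which is 64.2% and 72.6% of the lists. Opposite calls were made for 12 genes, 4 of them higher in skin in the Cont pair and 8 higher in the line. Of the 977 genes at the floor in cultured BECs, 972 had more than 3 reads in the library labelled Dot1l KO and 844 had 3 reads or fewer in the OE line. Dot1l itself had 762 reads (86.5 CPM) in skin Cont and 944 (85.6 CPM) in the library labelled Dot1l KO, so that the count over the whole gene did not separate these libraries, and 1972 (118.5 CPM) in cultured Cont against 4208 (338.9 CPM) in OE. In the LEC libraries Prox1, which defines lymphatic identity, had 0 reads, against their label, and their values are given only beside those of the BECs.

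Genes of other cell types marked the skin library. Macrophage genes were present although CD45 and F4/80 had been used to deplete such cells. All 20 macrophage markers were measured and 19 were higher in skin, beside the background of 19.5%. Their summed level was 6944 CPM in skin Cont and 10680 CPM in the library labelled Dot1l KO, against 85.5 and 57.8 CPM in Cont and OE cells of the line. Ptprc, which encodes CD45, had 1206 reads (136.8 CPM) in skin and 0 in cultured BECs, at least 759-fold more. Adgre1, which encodes F4/80, had 1719 reads against 0, at least 1082-fold more. Mrc1, the mannose receptor of tissue macrophages and of some lymphatic and sinusoidal endothelium, had 22493 reads (2552 CPM) against 6, a log2 ratio of 12.79 (11.67 to 14.24). F13a1, a coagulation factor subunit of macrophages and platelets, had 18687 reads (2120 CPM) against 2, a log2 ratio of 14.11 (12.25 to 17.15). Cd68, a lysosomal protein counted among the markers, did not separate the libraries (61.6 and 65.7 CPM). In bulk RNA, fewer cells of a type and less RNA per cell cannot be told apart, so these levels give no share of cells.

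Mast cells of the skin store proteases and histamine in granules. Of 11 measured mast cell genes, 9 were higher in skin and the other two, Kit and Srgn, are also endothelial or widely used. Cpa3, which encodes mast cell carboxypeptidase A, had 10969 reads (1245 CPM) in skin and 0 in the line, at least 6904-fold more, and 19211 in the library labelled Dot1l KO. Cma1, a chymase, had 5953 reads (675.5 CPM) against 0, at least 3747-fold more. Hdc, the enzyme that makes histamine, had 4344 reads (492.9 CPM) against 72, a 113.9-fold difference. Summed over 13 markers the level was 3041 CPM in skin Cont and 4311 CPM in the library labelled Dot1l KO, against 547 and 240 CPM in the line, where Kit and Srgn made up nearly all of it.

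Dermal fibroblasts make the fibrous matrix of the skin. All 19 measured fibroblast markers were higher in skin and 14 of them were at the floor in the line. Their sum was 3260 and 2447 CPM in the skin libraries against 4.15 and 8.70 CPM in the line. Dcn, a small proteoglycan of the dermis, had 82.8 CPM in skin and 0 reads in the line. Prrx1, a transcription factor of limb and dermal mesenchyme, had 118.2 and 0.240 CPM. Of 17 measured genes of pericytes and smooth muscle, which wrap vessels, 15 were higher in skin. Rgs5, a regulator of G protein signals and a pericyte marker, had 998 reads (113.2 CPM) against 0, at least 628-fold more. Abcc9, a subunit of the potassium channel of pericytes, had 2478 reads against 1 (log2 ratio 12.19, interval 9.71 to 17.50), and Notch3, the Notch receptor of mural cells, had 941 against 2 (9.80, 7.94 to 12.84). The 2 members that did not separate, Mcam and Mylk, are also used by endothelium.

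Other lineages were at lower levels. Keratinocyte genes were higher in skin for 12 of 15, among them Dsp (811 reads), a desmosome protein, and Krt5 (317 reads) and Krt17 (302 reads), keratins of the basal epidermis, each without a read in cultured Cont. The other 3 had log2 ratios below 0, with 2 of them within 3-fold. The remaining one was Ivl, a precursor of the cornified envelope, with 1 read in skin and 640 in the line. The 21 keratinocyte genes in the table summed to 341 CPM in skin and 109 CPM in the line. Of 11 adipocyte genes 8 were higher in skin, including Car3, a carbonic anhydrase of fat and muscle, with 1036 reads against 0. Car3 had only 36 reads in the library labelled Dot1l KO. Of 10 measured Schwann and neural genes 8 were higher in skin, led by Gap43, a growth cone protein, with 725 reads against 0. The sum over the list of 19 was nevertheless 170 CPM in skin and 447 CPM in the line, where Nefl alone had 441.9 CPM. Melanocyte genes summed to 287 CPM in skin and 432 CPM in the line, where Kit alone had 421.7 CPM, while Mitf, the factor of the melanocyte lineage, had 39.6 and 9.50 CPM. Muscle genes summed to 164 and 17.5 CPM, and erythroid and platelet genes to 203 and 29.3 CPM. Lymphocyte and granulocyte genes summed to 62.6 and 1.68 CPM, and 5 of the 16 in the table were measured, all of them at the floor in the line. The share of these cells in any other difference between the libraries was not tested.

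**Figure D2:**
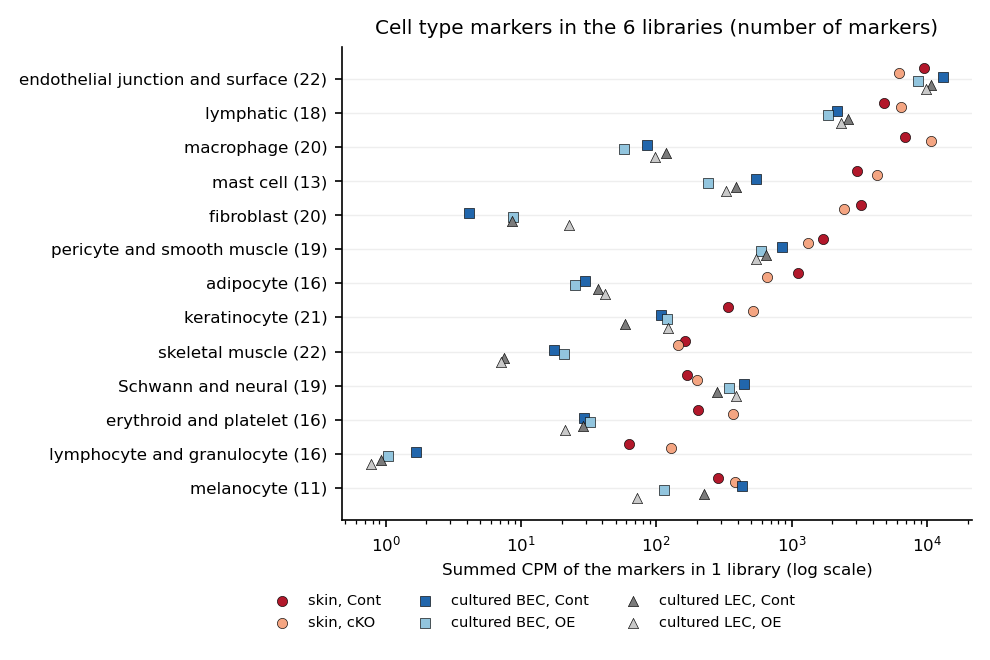
Summed CPM (log scale) of the markers of each cell type in each of the 6 libraries, with the number of markers in the table in brackets. Circles are skin, squares cultured BECs and triangles cultured LECs. Endothelial genes lie close together in all libraries (6229 to 13246 CPM), whereas macrophage genes lie at 6944 and 10680 CPM in skin and at 57.8 to 118 CPM in culture, and fibroblast genes at 2447 and 3260 CPM against 4.15 to 22.6 CPM.

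Both libraries held endothelial junction and surface genes. None of the 22 on this list was at the floor in either library, and their median log2 ratio was -0.30. Within 3-fold lay 17 of the 22, beside 71.1% of all genes. Pecam1 (chromosome 11, 106654217 to 106750628 of mm10, minus strand), which encodes the junction protein CD31, had 1185 CPM in skin and 1177 CPM in cultured BECs, a log2 ratio of 0.01 (-0.03 to 0.04). Cdh5, the cadherin of endothelial junctions, had 1520 and 3543 CPM, a log2 ratio of -1.22 (-1.25 to -1.19). Emcn, a sialomucin of veins and capillaries, had 241.2 and 323.1 CPM and Cd34 had 561.2 and 269.9 CPM. Higher in the line were Jam2 (81.9 and 1173 CPM) and Cldn5 (115.6 and 765.3 CPM), which seal tight junctions, together with Esam. Jam2 and Cldn5 were also variable within the line, at 136.8 and 237.6 CPM in OE cells. Higher in skin were Plvap, which forms the diaphragms of fenestrae and caveolae (303.8 and 86.8 CPM), and the gap junction gene Gja1.

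The transcription factors of endothelial cells were shared in part. Among 29 measured factors, 15 lay within 3-fold, 11 were higher in skin and 3 were higher in the line. Over all genes these shares were 71.1%, 19.5% and 9.45%. The ETS factors did not separate the libraries. Erg had 172.5 CPM in skin and 135.5 CPM in cultured BECs (log2 ratio 0.35, interval 0.25 to 0.44), and Fli1 had 290.9 and 393.0 CPM (-0.43, -0.50 to -0.37). The homeobox gene Meox2 had 1206 reads (136.8 CPM) in skin and 0 in the line, at least 759-fold more, and its relative Meox1 had 32.0 CPM against 0 reads. Sox7 was 8.26-fold and Mef2c 4.87-fold higher in skin. The reverse held for Foxf1, a forkhead factor of mesoderm and lung vessels, with 19 reads (2.16 CPM) in skin and 1884 (113.2 CPM) in the line, a log2 ratio of -5.72 (-6.45 to -5.07), and for Bcl6b and Klf2. Etv2, which starts the endothelial fate, had 0 reads in both.

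Receptors for angiogenic signals divided. Kdr, the main receptor for VEGF-A, had 1762 CPM in skin and 766.5 CPM in cultured BECs, and Flt1 and Flt4 also lay within 3-fold. Its co-receptor Nrp1 had 817.1 and 54.5 CPM, a log2 ratio of 3.91 (3.81 to 4.01). Higher in skin too were Tek, the receptor for angiopoietins (406.3 and 106.2 CPM), and Lifr, the receptor for leukemia inhibitory factor, with 3250 reads against 43 (142.7-fold). Aplnr, the apelin receptor of veins and sprouting vessels, had 4411 reads (500.5 CPM) in skin and 0 in the line, at least 2776-fold more, and 1987 in the library labelled Dot1l KO. Receptors that the line held at higher levels were S1pr1 for sphingosine phosphate (160.2 and 604.2 CPM), Acvrl1 for BMP9 (96.5 and 461.2 CPM), and Calcrl with its partners Ramp2 and Ramp3, which together bind adrenomedullin. Ramp3 had 2 reads in skin and 1288 (77.4 CPM) in the line, a 341-fold difference (94.2 to 2819). Over all 22 receptors 7 were higher in skin and 5 in the line, beside backgrounds of 19.5% and 9.45%.

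Capillary genes, many of them for taking up and moving fatty acids, were often higher in skin, and none was more than 3-fold higher in the line. Of 23 measured, 16 were higher in skin, 7 lay within 3-fold, and the median log2 ratio was 2.75. Cd36, the fatty acid translocase, had 9758 reads (1107 CPM) in skin and 8 in cultured BECs, a log2 ratio of 11.17 (10.19 to 12.38). Fabp4, a fatty acid binding protein of capillaries and fat, had 849.1 and 9.98 CPM, an 85.1-fold difference. Lpl, the lipase that frees fatty acids from lipoproteins, had 479 reads against 3 (301.5-fold, interval 102.5 to 1467), while Gpihbp1, which anchors it to the vessel wall, had 48.6 and 47.1 CPM. Several of these genes are also used by fat cells and macrophages, whose markers were higher in skin as well. Cav1, the coat protein of caveolae, had 2395 and 137.3 CPM (log2 ratio 4.12, interval 4.06 to 4.19), while Ptrf, which builds the same structures, had 694.3 and 724.1 CPM. Rgcc, a capillary marker, had 765 reads against 10, and Btnl9, a butyrophilin of capillary endothelium, 726 against 106.

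Arterial and venous genes did not sort the libraries into either kind. Among 20 arterial genes 8 were higher in skin and 3 in the line, beside backgrounds of 19.5% and 9.45%. The connexins Gja4 (56.2 and 0.901 CPM) and Gja5 (57.6 and 2.28 CPM), the chemokine receptor Cxcr4 (338 reads against 0) and the Notch effector Hey1 (44.3 and 3.07 CPM) were higher in skin. The Notch ligand Dll4 (81.2 and 163.3 CPM) and the ligand Efnb2 (271.4 and 214.8 CPM) lay within 3-fold, and the receptor Notch4 was higher in the line (115.1 and 428.6 CPM). Igfbp3, which binds insulin-like growth factors, had 330.8 CPM in skin and 5834 CPM in cultured Cont, a 17.6-fold difference, where cultured Cont had 97087 reads and cultured OE 14062. Of 15 venous genes 6 were higher in skin, Aplnr among them, and 2 in the line. Nr2f2, the factor of venous identity, had 136.4 and 387.4 CPM (log2 ratio -1.51, interval -1.60 to -1.42), and Ephb4, the venous receptor for ephrin-B2, 162.0 and 614.3 CPM.

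Lymphatic genes remained in the skin library after the removal of Lyve1-positive cells. Of 15 measured, 11 were higher in skin, with a median log2 ratio of 8.78, or 6.46 with genes at 0 reads set to the floor. Prox1 (chromosome 1, 190118035 to 190170714, minus strand) had 1304 reads (148.0 CPM) in skin and 0 in the line, at least 821-fold more. Mmrn1, a multimerin, had 7399 reads (839.6 CPM) against 5, and Reln, a secreted glycoprotein, 4125 reads against 2 (log2 ratio 11.93, interval 10.07 to 14.97). Maf, a transcription factor of lymphatic cells and macrophages, had 3281 reads against 0, at least 2065-fold more. Lyve1 itself had 1033 CPM in skin and 641.8 CPM in the line, and the scavenger receptor Stab1 had 1285 and 1207 CPM, so that neither separated the libraries. Its relative Stab2 was the one lymphatic gene higher in cultured Cont (15.1 and 144.9 CPM), but it was 79.4 CPM in the library labelled Dot1l KO and 9.18 CPM in cultured OE.

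Genes of sprouting divided into some that were read in skin and not in the line and others shared by both. Of 22 tip cell genes and angiogenic ligands, 13 were higher in skin and 3 in the line, beside backgrounds of 19.5% and 9.45%. Vegfc, the ligand that drives lymphatic growth, had 229 reads against 0, the guidance receptor Robo1 776 against 0, and Esm1, a proteoglycan of tip cells, 140 against 0. Angpt2, which loosens vessels, had 85.6 and 4.21 CPM. Apln, the ligand of the apelin receptor, had 136.1 CPM in skin and 269.8 CPM in cultured BECs, so the line held the ligand and no read of the receptor. Vegfa had 22.7 and 47.1 CPM. Pgf, the placental growth factor that binds Flt1, had 39 reads (4.43 CPM) in skin and 5926 (356.1 CPM) in the line, a log2 ratio of -6.33 (-6.82 to -5.88).

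Genes for vascular tone and coagulation were higher in the line more often than in skin, 5 against 1 of 15. Nos3, the endothelial nitric oxide synthase (chromosome 5, 24364810 to 24384474, plus strand), had 749 reads (85.0 CPM) in skin and 28916 (1738 CPM) in cultured BECs, a log2 ratio of -4.35 (-4.46 to -4.25). In the second pair its levels were 45.7 and 1849 CPM. Thbd, the thrombin receptor that turns on protein C, was 7.81-fold, its partner Procr 4.80-fold, and Ace, the angiotensin converting enzyme, 7.91-fold higher in the line. Vwf, which carries platelets to the wall, had 131.9 and 216.7 CPM and did not separate the libraries. Edn1, the vasoconstrictor endothelin, was the member higher in skin, with 224 reads against 6 (log2 ratio 6.14, interval 4.99 to 7.60). Selp, the platelet and leukocyte selectin stored in Weibel-Palade bodies, had 14.8 CPM in skin and 556.5 CPM in the line. The 19 measured flow-responsive genes had 7 calls for the line and 5 for skin, beside backgrounds of 9.45% and 19.5%. The sister factors Klf2 (81.6 and 246.9 CPM) and Klf4 (184.6 and 53.1 CPM) lay on opposite sides, and Nqo1, a target of the antioxidant factor Nrf2, was 14.9-fold and Cyp1b1 42.8-fold higher in the line.

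**Figure D3:**
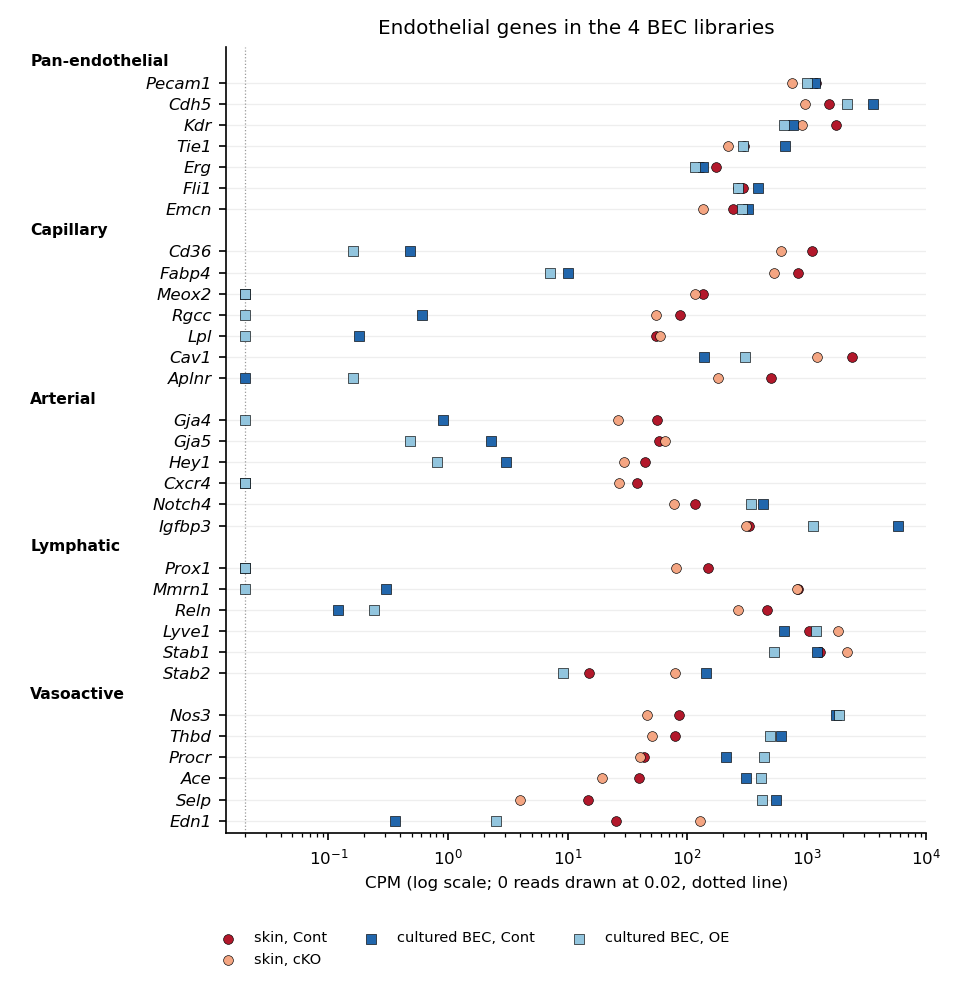
CPM (log scale) of endothelial genes in the skin libraries (circles) and in cultured BECs (squares), dark for Cont and light for cKO or OE, with 0 reads drawn on the dotted line. Pan-endothelial genes overlap, capillary genes such as Cd36 and lymphatic genes such as Prox1 lie far to the right in skin, and Nos3, Thbd and Selp lie to the right in the line.

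Matrix genes of the connective tissue stood higher in skin. Of 27 genes of the interstitial matrix, 20 were higher in skin, beside the background of 19.5%, and 10 were at the floor in the line. Their median log2 ratio was 8.28, or 7.79 with counts under 3 reads raised to 3. Col3a1, a fibrillar collagen of skin and vessels, had 10508 reads (1192 CPM) against 0, at least 6614-fold more, and Col1a2 had 6403 (726.6 CPM) against 0, at least 4030-fold more. Fbn1, the main protein of microfibrils, had 5921 reads against 1 (log2 ratio 13.45, interval 10.97 to 18.75), and Col6a3 had 4490 against 3 (2826-fold). Postn, a matrix protein of the dermis, had 2895 reads against 0. These are also the defining products of fibroblasts, whose markers were higher in the same library. Fn1, the fibronectin of both cell types, had 668.8 and 717.9 CPM. The line held more Fbln5 (111.5 and 762.8 CPM), which organizes elastic fibres, and Spp1, the secreted phosphoprotein osteopontin (34 reads against 2124).

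Basement membrane genes, which endothelial cells make themselves, differed less than those of the interstitial matrix, with a median log2 ratio of 1.03. Among 23, 12 lay within 3-fold, 10 were higher in skin and only Lama5 was higher in the line (64.0 and 625.0 CPM). Over all genes 71.1% lay within 3-fold and 19.5% were higher in skin, so this list differed more often than genes at large. Col4a1 had 3410 CPM in skin and 2324 CPM in cultured BECs, and Hspg2, the proteoglycan perlecan, 1221 and 709.2 CPM. Nidogens, which join laminin to collagen IV, split. Nid2 had 4306 reads (488.6 CPM) in skin and 0 in the line, at least 2710-fold more, while Nid1 had 633.2 and 1320 CPM. Col15a1, a collagen of the outer face of the basement membrane, had 5031 reads against 5 (log2 ratio 10.89, interval 9.67 to 12.52). Sparcl1, a secreted matrix protein of vessel walls (chromosome 5, 104079111 to 104113733, minus strand), had the largest bounded ratio of any protein coding gene with at least 50 CPM, with 12360 reads (1402.5 CPM) in skin and 0 in cultured BECs, at least 7780-fold more. It had 12120 reads in the library labelled Dot1l KO and 4 in the OE line.

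Integrin genes, whose products are receptors for this matrix, differed by subunit between the libraries. Itgb1, the common beta chain, had 1327 and 1191 CPM. Itgb3, the beta chain of the vitronectin receptor, had 23.8 CPM in skin and 992.5 CPM in the line, a 41.7-fold difference, and Itga3, a laminin receptor chain, had 25.8 and 915.6 CPM, a 35.6-fold difference. Itga2, a collagen receptor chain, was 16.3-fold and Itga9 6.56-fold higher in skin. Over 15 integrins, 6 were higher in skin and 3 in the line, beside backgrounds of 19.5% and 9.45%. Among 19 proteases and inhibitors, Mmp14, a protease at the cell surface, was 32.5-fold higher in skin, and Adamts1, a secreted protease that cuts proteoglycans, was higher in the line (399.2 and 2763 CPM).

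Of 23 genes linked to a transition from endothelium to mesenchyme, 13 were higher in skin, but Acta2, Pdgfrb, Notch3 and Prrx1 among them are also pericyte or fibroblast markers. Vim, the intermediate filament of both states, had 3536 and 4066 CPM. Zeb2, a repressor of cadherins, had 516.3 and 76.0 CPM, and Snai1 (4.31 and 17.1 CPM) and Tgfb1 (438 and 3790 reads) were higher in the line. Of 26 targets of YAP and SRF, which answer to stiffness and stretch, 6 were higher in skin and 4 in the line. The backgrounds over all genes were 19.5% and 9.45%. The other pair gave 6 and 6 of 27, and the list median was 0.55 in the Cont pair and -0.17 there. Axl, a receptor tyrosine kinase, had 572 reads against 14, Actn1, an actin cross-linker, had 152.7 and 629.4 CPM, and Flna and Vcl lay within 3-fold. Ctgf had 31.3 and 57.8 CPM and Cyr61 191.4 and 70.6 CPM.

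Immediate early genes, which cells switch on within minutes of stimulation or of tissue digestion, were higher in the freshly sorted cells. Among 30 such genes 16 were higher in skin and 1 in the line, beside backgrounds of 19.5% and 9.45%, with a median log2 ratio of 1.90. Fos had 988.4 CPM in skin and 56.9 CPM in cultured BECs, a log2 ratio of 4.12 (4.02 to 4.22). Klf6 had 852.1 and 80.1 CPM, and the nuclear receptor Nr4a2 100.3 and 6.67 CPM. Egr1 had 401.7 and 213.2 CPM, and the heat shock gene Hspa8 1420 and 2061 CPM, so that not every stress gene followed. Fosl1, an AP-1 subunit of growing cells, had 3 reads in skin and 274 in the line. Inflammatory genes followed in part, with 10 higher in skin and 1 in the line of 22. Icam1, the adhesion molecule for leukocytes, had 824 reads (93.5 CPM) against 4 (log2 ratio 8.60, interval 7.24 to 10.48), Tnfaip3, an inhibitor of NF-kB, had 160.0 and 11.9 CPM, and Irf1 126.6 and 24.5 CPM. The median of the inflammatory list was 0.92 in the Cont pair and -0.18 in the other pair, where 8 genes were higher in skin and 7 in the line. Il1b and Tnf, cytokines of macrophages, were read in skin alone (8.74 and 16.9 CPM, 0 reads in the line), and Ccl2 had 66.7 and 140.3 CPM.

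Readouts of developmental signals were mostly lower in the line. Of 21 genes that follow Notch, Wnt or BMP, 14 were higher in skin and 1 in the line, beside backgrounds of 19.5% and 9.45%. The Wnt target Axin2 had 120 reads against 5, its effector Lef1 15.1 and 0.721 CPM, the Notch target Heyl 18.7 CPM against 0 reads, and the BMP target Id2 57.3 and 7.21 CPM. Hes1 (91.8 and 50.5 CPM) and Id1 (30.8 and 29.0 CPM) lay within 3-fold. Smad6, which restrains BMP signals, was the member higher in the line (7.49 and 51.6 CPM).

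Few genes of proliferation passed 3-fold between fresh and cultured cells. Of 25 genes of cell division, 24 lay within 3-fold and Mki67, a nuclear protein of cycling cells, was higher in skin (2440 and 757.5 CPM, a 3.22-fold difference). The median log2 ratio of the 25 was 0.54, beside 0.14 over all genes, and their sum was 6327 CPM in skin and 3414 CPM in the line. Of 30 genes of DNA replication, 26 lay within 3-fold and 4 were higher in skin, with a median of 0.27. In the other pair these medians were 0.17 and -0.38. Cell cycle inhibitors and p53 targets passed 3-fold more often. Of 19 such genes, 10 were higher in the line and 2 in skin, beside backgrounds of 9.45% and 19.5%. Their median log2 ratio was -1.73. Cdkn2a (chromosome 4, 89274471 to 89294653, minus strand), which encodes p16 and p19ARF, had 2 reads in skin and 324 (19.5 CPM) in cultured BECs, an 85.8-fold difference (23.6 to 711.5), and Cdkn2b beside it had 3 and 250. Cdkn1a, the p53 target p21, had 16.1 and 129.7 CPM, Eda2r 2.04 and 63.3 CPM, Phlda3 5.22 and 109.4 CPM, and Zmat3 194 and 3449 reads. Trp53 itself had 71.6 and 95.6 CPM. Higher in skin were Sesn1 (73.6 and 12.6 CPM) and Cdkn1c, the imprinted inhibitor p57 (130.7 and 0.901 CPM).

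The line held more of the interferon response. Interferons made in answer to virus or nucleic acid act through factors such as Stat2 and Irf9, which bind a repeat of GAAA in promoters and switch on antiviral genes. Of 29 measured genes of this response, 25 were higher in cultured BECs, beside the background of 9.45%, 1 was higher in skin, and the median log2 ratio was -2.49. The other pair gave 25 and 1 of 30. Ifit1, a sensor of viral RNA, had 16 reads (1.82 CPM) in skin and 1745 (104.9 CPM) in the line, a 57.8-fold difference. Oasl2 had 46 and 2672 reads (30.8-fold), and Usp18, which restrains the pathway, had 18 and 1286 (37.8-fold). Bst2, which tethers viruses to the membrane, had 12.9 and 234.8 CPM (log2 ratio -4.18, interval -4.46 to -3.91), and Xaf1 8.40 and 207.5 CPM. Mx1 was the exception, with 34 reads in skin and 16 in the line. Irf9 (43.6 and 61.5 CPM), Oas2 and Trim30a lay within 3-fold. Members of the Ifit, Oas and Gbp families resemble each other, so that the share of reads of any one is less certain than that of the group. The summed level of the 30 genes was 528 and 499 CPM in the skin libraries, 3105 and 2847 CPM in cultured BECs, and 1754 and 4090 CPM in cultured LECs. Empty virus had been given to the control cells of the line, so the part of the transduction cannot be told apart. Antigen presentation did not follow, with 13 of 16 genes within 3-fold, beside 71.1% of all genes, and B2m at 358.0 and 261.6 CPM. The other 3 were higher in skin and none was higher in the line. In the other pair 7 of 18 were higher in skin and none in the line. The list median was -0.32 in the Cont pair and 0.43 in the other.

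The binding repeat of this pathway can be seen in the promoters of 4 of these genes, shown here because, among the members higher in the line that hold a match, these had the highest CPM there. Each line holds 120 bases around the match nearest the start, all of them within 250 bases before the gene's start in RefSeq (mouse GRCm38.p6) and read on the strand of the gene, and capitals mark letters that match GAAANNGAAA or, on the other strand, TTTCNNTTTC, overlapping matches included. The windows are chr8:71537527-71537646 (minus strand, Bst2), chr10:128270248-128270367 (plus strand, Stat2), chr11:48871421-48871540 (minus strand, Irgm1) and chr3:142559924-142560043 (plus strand, Gbp3).
Bst2: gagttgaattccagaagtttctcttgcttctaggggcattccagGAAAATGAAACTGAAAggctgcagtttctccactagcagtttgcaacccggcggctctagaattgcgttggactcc
Stat2: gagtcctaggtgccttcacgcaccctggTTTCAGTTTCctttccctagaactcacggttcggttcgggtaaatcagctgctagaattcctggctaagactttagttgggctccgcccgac
Irgm1: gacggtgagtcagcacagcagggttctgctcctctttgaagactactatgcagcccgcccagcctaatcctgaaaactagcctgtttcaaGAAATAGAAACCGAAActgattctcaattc
Gbp3: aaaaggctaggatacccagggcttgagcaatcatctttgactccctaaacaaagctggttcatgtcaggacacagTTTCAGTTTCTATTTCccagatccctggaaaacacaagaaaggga

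The match nearest the start began 124 bases before it in Bst2, 222 in Stat2, 24 in Irgm1 and 39 in Gbp3. In the line Stat2 was 5.73-fold, Irgm1 4.63-fold and Gbp3 12.4-fold higher than in skin. The repeat was found within 250 bases before the start of 12 of 20 genes of the list with a promoter sequence (60%), of 3.08% of the 10031 genes of the pair with one, and of 3.46% of all 27025 promoters. Only 20 of 29 measured members had a sequence, which is too few for a check of the whole list, and a match is a description of letters, not of a bound site.

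The other genes far higher in the line, many but not all of them at the floor in skin, were a mixed set. Several were first known from epithelium, nerve or placenta. Krt20 (chromosome 11, 99428403 to 99438150, minus strand), a keratin of intestinal and urinary epithelium, had 0 reads in skin and 7874 (473.2 CPM) in cultured BECs, at least 1390-fold more. Scaled also to exon length (RPKM), this level was 246 against 189 for Pecam1 in the same library. Krt20 had 674.1 CPM in OE cells, 445.6 and 605.8 CPM in the LEC libraries, and 1.18 CPM in the library labelled Dot1l KO. Nefl, the light chain of neurofilaments, had 5 reads in skin and 7354 (441.9 CPM) in the line, a 779-fold difference (333.6 to 2400). Gad2, an enzyme that makes the transmitter GABA, had 0 and 1322 reads, at least 233-fold more. Ptprn, a protein of secretory granules in endocrine and nerve cells, had 10 and 3781 reads, and Disp2, a relative of the protein that releases Hedgehog, 6 and 5086. These genes were also read in all cultured libraries, with 276.4 CPM of Nefl and 49.0 CPM of Gad2 in LEC Cont. Of the 19 Schwann and neural genes in the table, 15 were at the floor in cultured Cont, and Stmn2, Gap43 and Nefm had 0 reads there.

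Rhox5, an X-linked homeobox gene of placenta and testis (chromosome X, 37804842 to 37808876, plus strand), had 1 read in skin and 2912 (175.0 CPM) in the line, a 1542-fold difference with a wide interval (276.6 to 60934). Plac8, first described in placenta, had 5.11 and 907.4 CPM, a 178-fold difference. Tmprss11e, a serine protease of epithelia at the cell surface, had 1 read against 1671, and Cftr, the chloride channel, had 2 against 1167 (309-fold, interval 85.4 to 2555). Cftr had 171 reads in the library labelled Dot1l KO, so its absence in skin held for the Cont library alone. Inhbb, a subunit of activin B, had 28 and 7036 reads, Nrg1, the ligand of ErbB receptors, 3 and 1080, Rufy4 1 and 1046, AA467197 3 and 946, and Ifi27l2b 1 and 895. Of the 141 genes at the floor in skin, 118 (83.7%) had at least 1 CPM in LEC Cont, close to the 84.1% of all genes of the pair. Of the 977 genes at the floor in cultured BECs, 8 (0.819%) reached that level in LEC Cont.

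**Figure D4:**
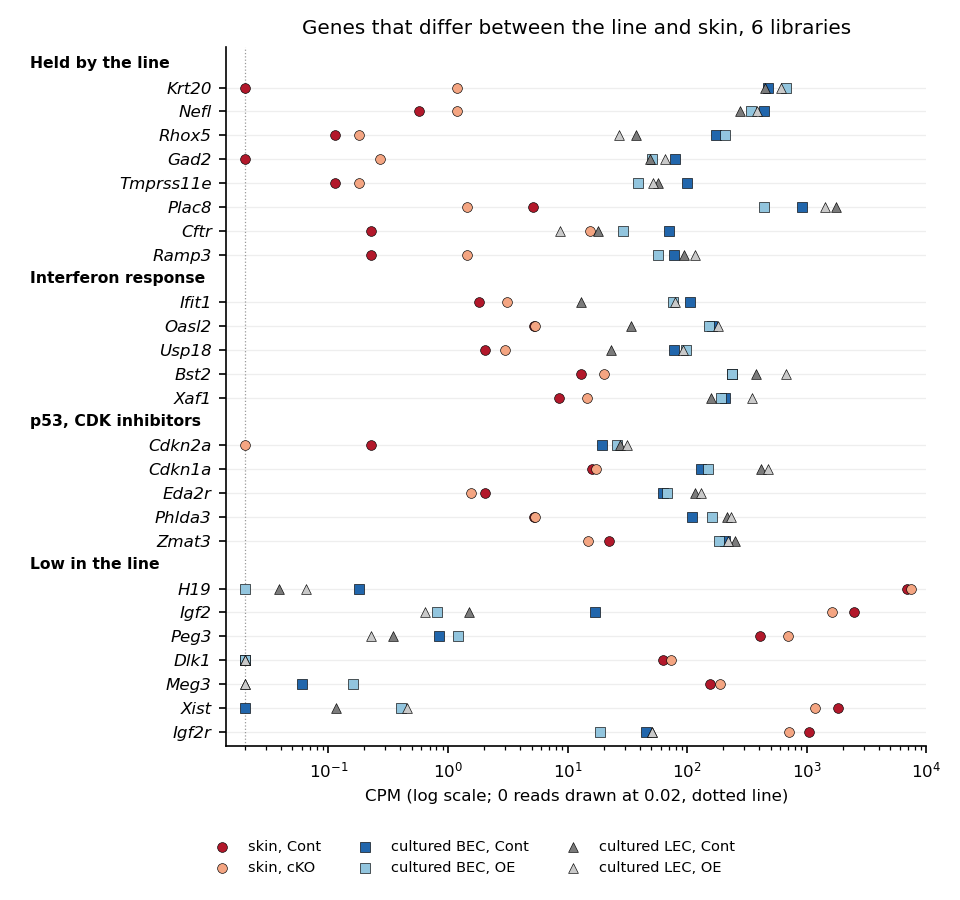
CPM (log scale) of genes that differed between cultured cells and skin in all 6 libraries, with 0 reads drawn on the dotted line. In the upper groups the squares (cultured BECs) and most triangles (cultured LECs) lie to the right of the circles (skin), as for Krt20 at 473.2 CPM against 0 reads, and in the lowest group the circles lie to the right, as for H19 at 6849 CPM against 0.180 CPM.

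Imprinted genes, which are expressed from 1 parental copy and govern growth of the embryo, were the reverse. Of 22 measured, 19 were higher in skin, none was higher in the line, and 9 were at the floor in the line. The median log2 ratio was 7.17, or 5.93 with counts under 3 reads raised to 3. H19 (chromosome 7, 142575529 to 142578143, minus strand), a long noncoding RNA, had 60360 reads (6849 CPM) in skin and 3 in cultured BECs, a log2 ratio of 15.21 (13.67 to 17.49). Igf2, the fetal growth factor beside it, had 22002 reads (2497 CPM) against 282, a log2 ratio of 7.20 (7.03 to 7.38), and its clearance receptor Igf2r 1036 and 45.4 CPM. Peg3, a zinc finger gene, had 3605 reads against 14, Plagl1 5731 against 310, and Mest 1192 and 136.3 CPM. The 3 members within 3-fold were Grb10, an adaptor of insulin receptors (1263 and 1172 CPM), Sgce and Nnat. The library labelled Dot1l KO had 81191 reads of H19 and 17932 of Igf2, and the OE line 0 and 10, so the division between skin and line held in the other pair for both.

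On chromosome 12 a run of 5 neighbours was at the floor in the line from 109452823 to 109749460, chosen after its values were seen. It is the imprinted domain of Dlk1 (550 reads in skin, 0 in the line), a Notch-like growth regulator, Meg3 (1379 and 1), Rtl1 (58 and 0), Rian (1197 and 0) and Mirg (40 and 0). Meg3, Rian and Mirg are noncoding. A run of 6 keratins on chromosome 15, from 101411043 to 101940324, was at the floor as well (Krt7, Krt6a, Krt5, Krt1, Krt4 and Krt79, 33 to 317 reads in skin). The last run, on chromosome 3 from 59005825 to 59344394, held Med12l, Gpr171, P2ry13, P2ry12 and Igsf10, with 66 to 952 reads in skin, where the P2ry genes encode nucleotide receptors of macrophages and platelets. No run of 5 or more neighbours was at the floor in skin.

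Growth and RNA-binding genes of the fetus were divided. Igf2bp1, which binds and protects Igf2 and other messages, had 1001 reads (113.6 CPM) in skin and 1 in cultured BECs, though 41 in OE cells, and Igf2bp3 had 148.8 and 2.58 CPM. Igf2bp2 (35.5 and 110.2 CPM) and the chromatin protein Hmga2 (22.6 and 159.2 CPM) were higher in the line. Lin28a and Sall4 had 0 reads in both. Among 16 genes of the Hox A and B clusters, which record position along the body, 3 were higher in skin and 5 in the line. Hoxb8 (2.16 and 74.0 CPM), Hoxb7 (10.3 and 59.8 CPM), Hoxb6 and Hoxb5 stood higher in the line, whereas their neighbour Hoxb9 (13.7 and 0.781 CPM) and Hoxa9 (79 reads and 0) stood higher in skin. Of the C cluster the line had no read of Hoxc4, Hoxc6 or Hoxc8 (4.43, 4.77 and 7.15 CPM in skin), while Hoxd8 (86.7 and 73.7 CPM) and the other measured D genes lay within 3-fold. Of 22 genes of yolk sac endoderm, 6 were measured. Afp (0 and 41 reads) and Gata4 (0 and 33 reads) were read in the line at 2.46 and 1.98 CPM, Trf, the iron carrier transferrin, had 1164 reads in skin and 1 in the line, and Ttr and Apoa4 were at the floor in both. Of 15 genes of hemogenic endothelium 7 were higher in skin and none in the line, but Ptprc, Spi1, Myb and Ikzf1 among them are leukocyte genes. Runx1, which starts blood formation, had 60.1 and 8.65 CPM, and Kit 235.2 and 421.7 CPM.

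Xist, the RNA that silences an X chromosome in females, had 16143 reads (1832 CPM) in skin and 0 in cultured BECs, at least 10161-fold more. The Y-linked genes Ddx3y (95.2 and 161.6 CPM), Eif2s3y (30.3 and 52.0 CPM), Kdm5d and Uty were read in both libraries and lay within 3-fold. The skin pool therefore held RNA with Xist and RNA from Y-linked genes, and the line held the latter alone. Kdm6a, an X-linked gene that escapes silencing, had 169.0 and 51.2 CPM. Of 9 measured genes on the list of X inactivation and Y-linked genes, Xist and Kdm6a were higher in skin and the other 7 lay within 3-fold.

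Most genes of metabolic and housekeeping groups lay within 3-fold, as did 71.1% of all genes. Of 22 genes of glycolysis, 15 lay within 3-fold, 4 were higher in the line and 3 in skin. Their summed level was nevertheless 2393.5 CPM in skin and 5046.8 CPM in cultured Cont. Gapdh had 164.2 CPM in skin and 928.4 CPM in the line, a 5.65-fold difference, and Pgk1 91.7 and 375.6 CPM. The median log2 ratio was -0.28 for 24 genes of cholesterol synthesis, -0.36 for 26 of the respiratory chain, -0.50 for 28 of ribosome biogenesis and 0.12 for 21 of hypoxia, with 6 or fewer calls in all for each. Hif3a, an inhibitory subunit of the hypoxia factors, stood apart with 1745 reads against 1. Dot1l, the H3K79 methyltransferase on which the study turns (chromosome 10, 80755206 to 80795461, plus strand), had 86.5 CPM in skin and 118.5 CPM in cultured Cont, a log2 ratio of -0.46 (-0.58 to -0.33). Of the 17 genes on the list of Dot1l and its partners, Dot1l included, 14 lay within 3-fold. Mllt3, the reader AF9 that recruits Dot1l, was 8.58-fold higher in the line (28.7 and 246.4 CPM), but 44.3 and 91.7 CPM in the other pair, and Sirt1 was 4.36-fold higher in skin.

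Among small RNAs more genes were called for the line than for skin. Snord15b, a small nucleolar RNA within a host gene, had 15 reads in skin and 3946 (237.1 CPM) in cultured BECs, and Snord15a, its near copy, 11 and 1899. In LEC Cont these had 24 and 3 reads. Snord17 was 6.32-fold and the pseudogene Pisd-ps1 8.90-fold higher in the line. Of 75 measured microRNA and small nuclear or nucleolar RNA genes, 31 were higher in the line and 8 in skin. Dnm3os, a noncoding RNA of mesenchyme, had 494 reads in skin and 3 in the line. The ratio also moved with transcript length. In 4 equal classes of summed exon length, with medians of 1961, 3615, 5542 and 9231.5 bases, the median log2 ratio was -0.18, 0.05, 0.22 and 0.45. What underlies this drift was not tested.

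Position in the genome moved with the ratio as well, an analysis chosen after the data were seen. The median log2 ratio of skin over cultured BECs was 1.13 over the 521 genes on chromosome 13 and 1.16 over the 438 genes on chromosome 14. On the other 18 chromosomes it ranged from -0.37 (chromosome 5) to 0.67 (chromosome 18). More than 3-fold higher in skin were 34.4% of the genes on chromosome 13 and 35.6% on chromosome 14, against 11.7% to 27% elsewhere. When each chromosome was divided into 6 stretches of equal numbers of genes, every stretch of chromosome 13 had a median of 0.85 to 1.47 and every stretch of chromosome 14 one of 0.82 to 1.51. The other pair gave 1.12 and 1.23. Skin Cont over LEC Cont, which shares the skin library, gave 1.295 and 1.07, and -0.52 to 0.68 on the other chromosomes. Between the skin libraries (Cont over cKO) the medians of all chromosomes lay between -0.08 and 0.07, and between the BEC lines (Cont over OE) between -0.14 and 0.03. Genes of these chromosomes that are named above as higher in skin include F13a1, Klf6 and Itga2 on 13 and Nid2, Cma1 and Mmp14 on 14. Every gene called above 3-fold exceeds both medians by the rule itself, so nothing about these genes follows from that. What underlies the 2 chromosomes was not tested.

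**Figure D5:**
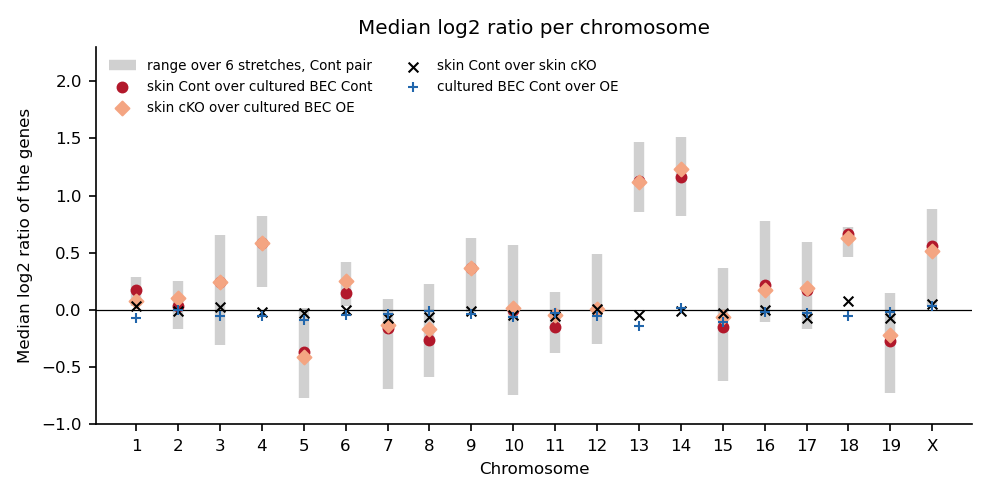
Median log2 ratio of the genes on each chromosome for skin over cultured BECs (circles Cont, diamonds cKO over OE), with the range over 6 stretches of the chromosome as grey bars, and for the comparisons within skin (crosses) and within the line (plus signs). Chromosomes 13 and 14 stand at 1.13 and 1.16, above the range of -0.37 to 0.67 of the others, while the comparisons within skin and within the line stay between -0.14 and 0.07.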

How the data were processed

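RNA was sequenced from skin BECs, cultured BECs and cultured LECs, with 6 libraries in all and 1 library per group. Per the labels and the study's methods, libraries were made with ScriptSeq v2, skewer v0.2.2 removed adapters, STAR v2.7.9a aligned the reads to mm10, and the authors deposited raw read counts per gene made with VERSE v0.1.5 (option -S). Their gene annotation is not given in the sources used here. Gene positions, types and summed exon lengths were taken, by symbol, from GENCODE M21, and gene families whose members resemble each other, such as keratins, Ifit, Oas and Gbp genes and Snord15a and Snord15b, are less certain singly. No column of values was left unmapped (0).

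From the counts, Rn45s was left out, each library was scaled to its remaining total, and a minimum of 30 reads over both libraries was set. A gene was called where the ratio passed 3-fold. Ratios of single genes in the report use the reads as they are, while medians and the values of single genes under other settings had 0.5 read added before log2. Exact 95% intervals and a floor of 3 reads cover counting error only. With 1 library per group there was no test between conditions, and the unit of comparison is the library. DESeq2 1.42.0 and edgeR 4.0.16 (R 4.3.3) gave scaling factors alone, and the rest ran in Python 3.11.15 on steps tested on simulated data. Of 48 gene lists with 1020 entries, 1015 entries were in the table and 878 were measured (782 different genes). The genes named are Dot1l, list members, the 15 protein coding genes per direction with at least 50 CPM and the largest nearer limit, the 10 highest at the floor, and the 5 leading noncoding genes, and others are said to have been chosen after their values were seen. The members and lists were chosen with earlier results of these data known. Promoter sequences were taken from RefSeq. Alternatives were other folds, filters, floors, scalings and libraries. Values of the LEC libraries are given only side by side.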

Additional observations from a re-analysis of the deposited data

Results flagged for a closer look

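Stab2, a scavenger receptor of lymphatic and sinusoidal endothelium, went in opposite directions in the 2 pairs of skin and line. It had 15.1 CPM in skin Cont and 144.9 CPM in cultured Cont, a log2 ratio of -3.26 (-3.53 to -3.01), but 79.4 CPM in the library labelled Dot1l KO and 9.18 CPM in cultured OE, a log2 ratio of 3.113. The difference between the pairs was not tested, since each group is 1 library, and Dot1l was changed in both libraries of the second pair.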

How the results depend on the processing

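With a fold above 2, 2320 genes were higher in cultured BECs, and with a fold above 10, 1519 were higher in skin and 297 in the line. Without the filter on reads the counts were 5768 and 2042. With at least 100 reads in the pair 1616 genes were higher in skin, 459 were at the floor in the line and 58 at the floor in skin. With the nearer limit of the interval past 3-fold, 816 genes were higher in the line. A floor of 0 reads left 50 genes at the floor in skin, and the library labelled Dot1l KO against cultured OE gave 86. In that pair the log2 ratio of Stab2 reversed to 3.108 with 0.5 read added. DESeq2 factors moved the median log2 ratio of all genes from 0.14 to -0.02, with 2408 genes higher in skin and 1473 in the line, and edgeR's TMM factors gave 2504 and 1361. Each of these scalings shifts every log2 ratio of the pair by 1 common amount, which was under the limit of 1.5 times. The medians of all lists and chromosomes and the recomputed named genes therefore had to stay within it. Nothing about any single list, chromosome or gene follows from that. Over the other settings, 46 of the recomputed list medians moved by more, 23 of them in the second pair, where 32 of 44 named genes also moved by more. Chromosome medians were an alternative added after seeing the data. Because no test was made, depth limits the values through their intervals, and 1 library per group leaves the spread between animals and cultures unknown. No paired analysis was possible because each group holds 1 library.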

Other observations

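Gene families, chosen after their values were seen, stood beside backgrounds of 19.5% of all genes higher in skin and 9.45% higher in the line. Of 37 measured potassium and sodium channel genes (Kcn and Scn), 23 were higher in skin and 8 in the line. Chemokine ligands were higher in skin for 12 of 17, and 8 of these genes were at the floor in the line. Zfp zinc finger genes had 54 of 326 higher in skin and 8 in the line, with a median log2 ratio of 0.39, so that both shares lay under the background, and 93 ribosomal protein genes had a median of -0.59. The 54 histone genes summed to 2908 CPM in skin Cont and 3131 CPM in cultured Cont, against 6.47 and 7.13 CPM in the LEC libraries.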
